A study of Homo sapiens with 6 samples.

Results

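Transcript levels in A549 cells treated with the code-named compound Comp.4 were compared with those in vehicle-treated cells across all 22395 genes that carried a single symbol. A549 is an established human lung adenocarcinoma line of epithelial origin. The members are 4 of the 6 arrays of the series, 2 that the labels call Comp.4 and 2 they call vehicle, and the remaining 2 arrays hold Comp.2. Comp.4 was given at 2 µM, 24 hours after plating, and RNA was taken on day 2, while the controls had vehicle alone for the same time. All groups were the same line in the same medium, and the labels do not say whether the arrays of a group came from separate cultures. The p-values thus speak only for the scatter among these arrays, and that scatter may be technical.

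The series title calls the compounds histone acetyltransferase inhibitors that act at particular DNA sequences, and the design asked how each altered gene expression. Histone acetyltransferases such as EP300 and CREBBP place acetyl groups on histone lysines near promoters and enhancers. Proteins with bromodomains bind these marks, and Mediator and elongation factors link them to RNA polymerase II. Small nucleolar and Cajal body RNAs, in contrast, guide the chemical modification of ribosomal and spliceosomal RNA, and most of them are cut from the introns of other genes.

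The deposited values are log2 levels per probe set, between 1.80 and 13.26, with array medians of 4.55 to 4.56. Because the arrays had been scaled to a common distribution, a change shared by most transcripts cannot be seen. Levels of different genes also cannot be compared with each other. The SD of the log2 difference over genes was 0.158 between the vehicle arrays, 0.182 between the Comp.4 arrays and 0.211 to 0.220 between a vehicle and a Comp.4 array. The number of arrays limits the precision, and with 2 arrays a side no permutation p can be smaller than 0.333. Probe sets differ in brightness, so a check of the cell type by its markers is coarse: the median of 8 epithelial genes was 7.32 to 7.48 per array, against 4.18 to 4.29 for 6 fibroblast, 4.15 to 4.24 for 7 endothelial and 3.41 to 4.05 for 7 leukocyte genes. The sets overlapped in level: the lowest epithelial gene had a mean of 4.98, while the leukocyte gene CD14 had 6.04 and the endothelial gene CLDN5 5.83. No marker of any set passed the test of Comp.4 against vehicle, which compares the groups and does not bear on cell type.

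Of the 22395 genes, 33 (0.147%) passed limma's test at an adjusted p of 0.05, of which 12 (0.0536%) rose and 21 (0.0938%) fell. Those 33 were mostly not protein-coding, 28 of 33 (84.8%), although 76.2% of the genes tested were protein-coding. Among the 17065 protein-coding genes, 5 (0.0293%) passed, 2 (0.0117%) rising and 3 (0.0176%) falling, and among the 5330 other genes 28 (0.525%) passed. The 28 had a median change of 1.93-fold and the 5 protein-coding genes one of 1.60-fold. In RNA from whole cultures, fewer cells with a transcript and less of it per cell cannot be told apart. No gene passed when any 1 of the 6 arrays was left out of this fit, although the unadjusted p stayed under 0.05 for 1228 to 1999 higher and 1150 to 1767 lower genes. With all arrays 3699 genes (16.5%) had such a p, 1935 (8.64%) higher and 1764 (7.88%) lower; 1432 (8.39%) and 1394 (8.17%) protein-coding genes were among them. With the 4 vehicle and Comp.4 arrays alone limma called 0 higher and 0 lower genes, against 1999 and 1767 unadjusted. In this fit the 33 calls thus rest on a spread estimated with the Comp.2 arrays included.

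A second limma fit let the expected variance follow the mean level of a gene, which lowers it for bright genes, and it is called the fit with a variance trend. It called 1226 genes (5.47%), 488 (2.18%) higher and 738 (3.3%) lower, 80.0% of them protein-coding. Of the protein-coding genes it called 981 (5.75%), 362 (2.12%) higher and 619 (3.63%) lower, and all 33 genes above were among those called. Their differences were small: the median size was 1.24-fold for the higher and 1.25-fold for the lower protein-coding genes, and only 14 and 30 of them reached 1.5-fold. On the 4 vehicle and Comp.4 arrays alone the fit with a trend called 551 higher and 794 lower genes, with all 33 among them. The counts depended on single arrays. Without vehicle replicate 1 there were 100 higher and 143 lower genes, without vehicle replicate 2 there were 113 and 150, without Comp.4 replicate 1 there were 165 and 260, and without Comp.4 replicate 2 there were 213 and 333. In what follows, "rose" and "fell" are kept for the 33 genes, and genes called only with a variance trend are given as higher or lower.

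**Figure D1:**
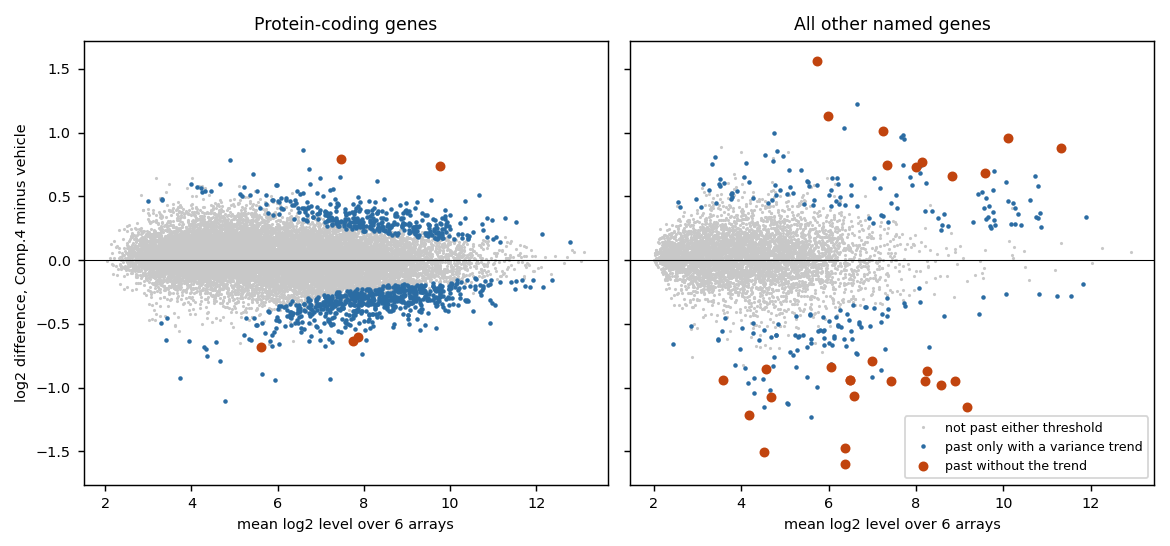
Log2 difference between Comp.4 and vehicle against the mean log2 level over 6 arrays, 1 point per gene, for protein-coding genes on the left and all other named genes on the right. Large points are the 33 genes past the threshold, 5 on the left and 28 on the right, and mid-size points are genes past it only with a variance trend, which on the left form a band of small differences at higher levels.

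SLC51B encodes a subunit of the transporter that moves bile acids and steroids out of epithelial cells. Its level was 6.94 and 7.12 on the vehicle arrays and 7.82 and 7.83 on the Comp.4 arrays. The groups did not overlap, as for all 5 protein-coding genes past the threshold and 49.4% of all genes. The rise was 0.80 on the log2 scale (SE 0.09, 1.74-fold, limma adjusted p = 0.0425). GDF15, a stress-induced cytokine of the TGF-β superfamily, had 9.23 on both vehicle arrays and 9.91 and 10.02 under Comp.4. It rose by 0.74 (SE 0.08, 1.66-fold, adjusted p = 0.0425), far beyond the distance between arrays of a group.

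Of the 3 protein-coding genes that fell, SERPINB9 encodes an intracellular inhibitor of the protease granzyme B. It had 8.15 and 8.13 under vehicle and 7.53 and 7.54 under Comp.4, a fall of 1.52-fold (log2 -0.61, SE 0.07, adjusted p = 0.0425). METTL2B, a tRNA methyltransferase gene, had 5.83 and 5.93 against 5.15 and 5.24, and it fell 1.60-fold (log2 -0.68, SE 0.08, adjusted p = 0.0425). METTL2B has a near-identical copy, METTL2A, so its value as a single gene is uncertain. CSNK1G1, which encodes a casein kinase 1 isoform, had 7.95 and 8.06 against 7.35 and 7.39, and it fell 1.55-fold (log2 -0.63, SE 0.07, adjusted p = 0.0481). Its other, dimmer probe set had a difference of -0.12, so its fall rests on 1 probe set. With a variance trend, 4 of these 5 genes passed in every fit that left out 1 array; METTL2B missed the threshold in 1 of the 6, at an adjusted p of 0.0591.

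As the compounds are described as acting at DNA sequences, the promoters of these 5 genes are shown, each from 250 bases before to 50 bases after the RefSeq transcription start (GRCh38.p14), 5′ to 3′ on the gene's own strand. Capitals mark matches, on either strand, to the GC box (GGGCGG), the CCAAT box (CCAAT), the TATA box (TATAAA), the AP-1 motif (TGANTCA) and the cyclic AMP response element (TGACGTCA). None of these motifs contains another.
SLC51B, plus strand, chr15:65045137-65045436: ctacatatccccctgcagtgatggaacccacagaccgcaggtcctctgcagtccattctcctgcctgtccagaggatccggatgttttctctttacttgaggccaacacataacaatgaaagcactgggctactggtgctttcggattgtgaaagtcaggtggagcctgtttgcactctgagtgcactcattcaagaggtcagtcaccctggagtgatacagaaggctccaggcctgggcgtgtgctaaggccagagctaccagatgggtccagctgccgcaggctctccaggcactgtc
GDF15, plus strand, chr19:18385908-18386207: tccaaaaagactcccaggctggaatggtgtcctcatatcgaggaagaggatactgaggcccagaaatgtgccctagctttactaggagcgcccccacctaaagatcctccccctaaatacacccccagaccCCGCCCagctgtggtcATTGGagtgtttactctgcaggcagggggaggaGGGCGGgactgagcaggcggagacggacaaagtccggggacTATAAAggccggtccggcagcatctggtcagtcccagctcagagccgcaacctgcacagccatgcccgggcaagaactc
SERPINB9, minus strand, chr6:2903260-2903559: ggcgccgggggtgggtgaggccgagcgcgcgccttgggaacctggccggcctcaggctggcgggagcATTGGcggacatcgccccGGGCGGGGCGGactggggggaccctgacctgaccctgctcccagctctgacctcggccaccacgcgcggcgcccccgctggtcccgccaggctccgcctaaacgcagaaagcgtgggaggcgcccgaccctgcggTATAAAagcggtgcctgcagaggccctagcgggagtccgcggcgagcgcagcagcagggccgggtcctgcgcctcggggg
METTL2B, plus strand, chr7:128476498-128476797: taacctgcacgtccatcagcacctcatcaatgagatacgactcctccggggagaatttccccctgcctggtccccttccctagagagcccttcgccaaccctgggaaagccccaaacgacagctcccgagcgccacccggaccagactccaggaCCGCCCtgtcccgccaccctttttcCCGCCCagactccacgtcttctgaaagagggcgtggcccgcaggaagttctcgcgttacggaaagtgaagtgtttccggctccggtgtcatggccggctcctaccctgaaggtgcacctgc
CSNK1G1, minus strand, chr15:64356124-64356423: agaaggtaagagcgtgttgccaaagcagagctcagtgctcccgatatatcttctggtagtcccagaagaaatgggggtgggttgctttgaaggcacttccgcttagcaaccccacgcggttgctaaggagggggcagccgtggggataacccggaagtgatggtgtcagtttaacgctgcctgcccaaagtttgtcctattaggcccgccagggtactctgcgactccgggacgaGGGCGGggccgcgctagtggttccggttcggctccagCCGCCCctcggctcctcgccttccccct
The GDF15 and SERPINB9 windows each held 2 GC boxes, 1 CCAAT box and 1 TATA box, with the GC boxes of SERPINB9 overlapping in 1 base. Those of METTL2B and CSNK1G1 held 2 GC boxes and none of the others, and the SLC51B window held no match. Their GC content ran from 55.0% in SLC51B to 75.7% in SERPINB9. Of the promoters of all 13870 measured protein-coding genes that had one, 60.1% held a GC box, 36.3% a CCAAT box, 9.24% a TATA box, 5.71% an AP-1 motif and 2.63% a cyclic AMP response element. A match describes the letters in this window and is not evidence of binding.

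Promoter composition of the wider group of moderately shifted genes is given as a description. A promoter was found for 82.3% of the 362 protein-coding genes higher with a variance trend and 84.2% of the 619 lower ones. Their median GC content was 65.0% and 64.7%, against 65.7% for the brighter protein-coding genes, where brighter means a mean level above the median gene (5.35). A GC box stood in 69.8% of the higher, 68.7% of the lower and 71.7% of the brighter genes' promoters. A cyclic AMP response element stood in 3.02% of the higher and 4.80% of the lower, against 3.43% of the brighter. These shares were not tested.

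To describe the moderate protein-coding shifts, genes were taken that were brighter, passed with a variance trend, had no overlap between the Comp.4 and vehicle arrays and had the same sign on each of their probe sets. There were 945, of which 346 were higher and 599 lower, with log2 differences down to 0.14 in size. Over all genes, arrays of the groups did not overlap in 49.4%, so that condition alone selects little. All 362 higher and all 619 lower protein-coding genes called with a trend met it, so lack of overlap adds nothing to such a call. The 15 with the largest differences each way are plotted by array. They ran from 0.54 to 0.86 among the higher and from -0.61 to -0.94 among the lower, with limma adjusted p-values of 0.0425 to 0.149 without the trend. Of these 30, 14 passed in each of the 6 trend fits that left out 1 array.

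**Figure D2:**
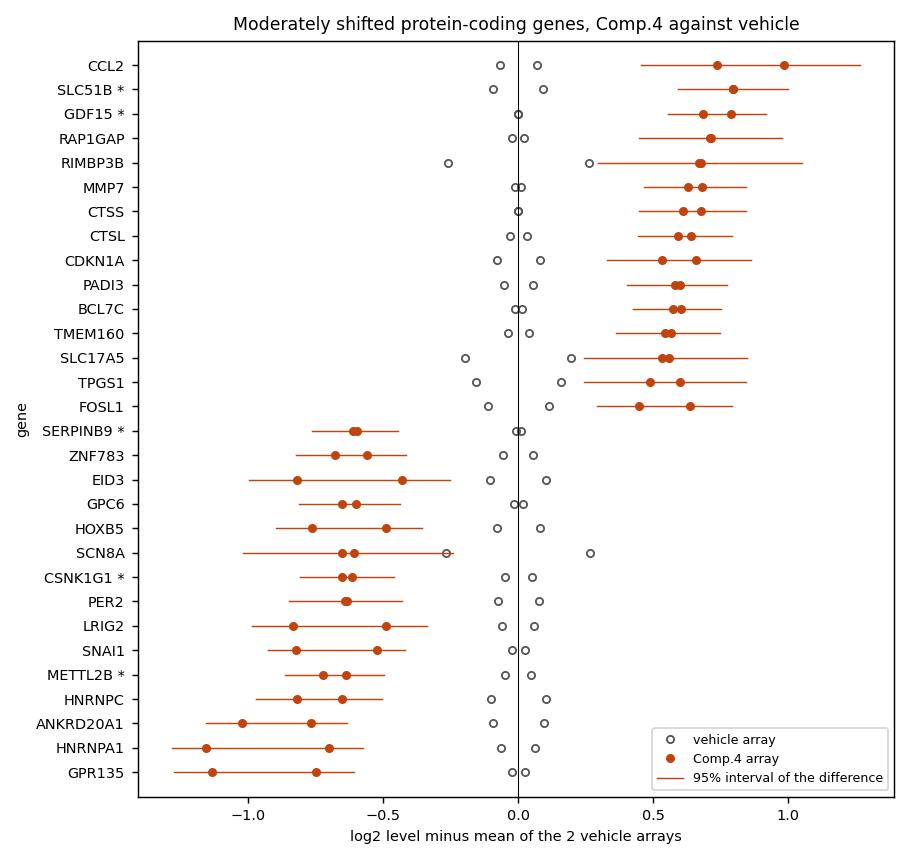
Log2 level on each vehicle and Comp.4 array minus the vehicle mean, for the 15 moderately shifted protein-coding genes with the largest positive and the 15 with the largest negative difference; lines are 95% intervals of the difference. Asterisks mark the 5 genes past the threshold without a variance trend, and the vehicle arrays lie farthest apart for RIMBP3B, SLC17A5 and SCN8A.

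Several of the 15 higher genes encode secreted or lysosomal proteins. CCL2, a chemokine that draws monocytes, was at 5.99 and 6.13 under vehicle and 7.04 and 6.79 under Comp.4, a difference of 0.86 (SE 0.17, adjusted p = 0.00943 with a trend and 0.105 without). MMP7, which encodes the secreted protease matrilysin, was at 7.10 and 7.12 against 7.74 and 7.79 (0.65, SE 0.08). The lysosomal protease gene CTSS was at 6.63 on both vehicle arrays and at 7.24 and 7.31 under Comp.4 (0.64, SE 0.08). MMP7 and CTSS also passed in every trend fit without 1 array, whereas CCL2 passed in 3 of the 6. CTSL, another lysosomal protease gene, lay just outside the threshold without a trend, with a vehicle mean of 7.97 ± 0.04 (SD, n = 2) against 8.56 and 8.61 (0.62, SE 0.07, adjusted p = 0.0513). SLC17A5, the lysosomal sialic acid exporter, was higher by 0.55, but its vehicle arrays were at 6.65 and 7.04.

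Others of the higher genes act in signalling and in the nucleus. RAP1GAP, which switches off the small GTPase RAP1, was at 6.47 and 6.43 under vehicle and 7.17 and 7.16 under Comp.4 (0.71, SE 0.11). CDKN1A, the cyclin-dependent kinase inhibitor p21, was at 6.08 and 6.24 against 6.82 and 6.69 (0.60, SE 0.11, adjusted p = 0.00943 with a trend and 0.0993 without). FOSL1, a subunit of the AP-1 transcription factor, was at 5.96 and 6.19 against 6.71 and 6.52 (0.54, SE 0.10). RAP1GAP passed in 5 of 6 trend fits without 1 array, and CDKN1A and FOSL1 in 4. BCL7C, a subunit of SWI/SNF chromatin remodelling complexes, was the first gene outside the threshold without a trend, at 5.71 and 5.68 against 6.30 and 6.27 (0.59, SE 0.07, adjusted p = 0.0504). The protein deiminase gene PADI3 (0.59), TMEM160 (0.55) and the tubulin polyglutamylase subunit gene TPGS1 (0.54) completed the group with RIMBP3B (0.67), a gene with near-identical copies. TPGS1 and RIMBP3B were less steady. When 1 array was left out, their differences ran from 0.38 to 0.70 and from 0.41 to 0.93. The vehicle arrays of RIMBP3B were at 4.84 and 5.36.

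RNA-binding proteins and transcriptional regulators stood among the 15 lower genes. HNRNPA1, which packages nascent transcripts and regulates splicing, was at 7.63 and 7.50 under vehicle and 6.41 and 6.86 under Comp.4, a difference of -0.93 (SE 0.15, adjusted p = 0.00319 with a trend and 0.0783 without). HNRNPC, of the same family, was at 8.41 and 8.20 against 7.48 and 7.65 (-0.74, SE 0.10). Both passed in all 6 trend fits without 1 array, but both genes have many processed copies in the genome, so probes may be shared. SNAI1, a repressor of CDH1 and driver of epithelial-mesenchymal transition, was at 6.21 and 6.16 against 5.66 and 5.37 (-0.67, SE 0.11). Its limma adjusted p was 0.00839 with a trend and 0.0773 without. With 1 array left out the SNAI1 difference ran from -0.82 to -0.52. CDH1 itself, the epithelial cadherin gene, was at 10.29 and 10.32 against 10.05 and 10.02, a difference of -0.27 (SE 0.07, adjusted p = 0.00354 with a trend). PER2, a repressor of the circadian clock, was at 7.50 and 7.65 against 6.93 and 6.94 (-0.64, SE 0.09).

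The remaining lower genes were more varied. The largest difference was that of the orphan receptor gene GPR135 (-0.94, SE 0.14), at 6.40 and 6.35 against 5.24 and 5.63. GPC6, a cell-surface heparan sulfate proteoglycan gene, was at 8.37 and 8.34 against 7.70 and 7.75 (-0.63, SE 0.08, adjusted p = 0.00082 with a trend). The arrays of a group lay closer together for GPC6 than for GPR135. ANKRD20A1 (-0.90), which has near-identical copies, LRIG2 (-0.66), the homeobox gene HOXB5 (-0.63), the zinc finger gene ZNF783 (-0.62) and EID3 (-0.62), named as an EP300-interacting inhibitor of differentiation, were also lower. A second probe set of ZNF783 had -0.08, so its value rests on 1 probe set, and LRIG2, HOXB5 and EID3 each passed in 3 of the 6 trend fits without 1 array. The sodium channel gene SCN8A (-0.63) passed in only 1 of the 6 trend fits without 1 array, its vehicle arrays were at 5.83 and 6.37, and its other probe set had -0.16.

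Gene lists are described by the number of members that passed with a variance trend and by the median difference. Over all genes 2.18% were higher and 3.3% lower by that rule, and over the 10077 brighter protein-coding genes 3.45% and 6.0%; the median difference was 0.02 and -0.01. Differences lay above 0 for 54.9% of all genes and 48.8% of the brighter protein-coding genes. The lists were written with earlier results of these data known, so their counts are a description.

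Genes of the acetylation machinery that the compounds are named for had small differences, most of them negative. Of 18 histone acetyltransferase genes none was higher and 4 (22.2%) were lower with a trend, with a median of -0.19 and 15 of 18 below 0. CREBBP was at 9.56 and 9.67 under vehicle and 9.26 and 9.15 under Comp.4, a difference of -0.41 (95% interval -0.61 to -0.22, adjusted p = 0.00315 with a trend and 0.104 without). EP300, its paralog, was at 8.91 and 8.96 against 8.53 and 8.72, with -0.31 (95% interval -0.51 to -0.11, adjusted p = 0.0205 with a trend and 0.163 without). KAT6B, of the MYST family, had -0.39 and the nuclear receptor coactivator NCOA1 -0.28. The count for the list was 1 to 5 when 1 array was left out.

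Other chromatin genes were counted in the same way. Of 41 histone methyltransferase and demethylase genes 5 (12.2%) were lower and none higher, with a median of -0.16 and 35 below 0. The 5 were SETD5 (-0.36), KMT2D (-0.33), KMT2E (-0.32), KMT2A (-0.30) and KMT2C (-0.29), members or relatives of the families that methylate histone H3. SETD5 was at 8.66 and 8.64 against 8.27 and 8.32. Of 32 bromodomain readers 3 (9.38%) were lower, BAZ2B (-0.32), PHIP (-0.30) and again KMT2A, and the median was -0.11. The second, dimmer probe set of BAZ2B had -0.13. Among 23 deacetylases and sirtuins only SIRT1 (4.35%) was lower (-0.26), near the share over all genes, and the median was -0.04. When 1 array was left out, 0 to 6 methylation enzymes, 0 to 3 readers and 0 to 1 deacetylases were lower.

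Genes that act between chromatin and mature mRNA were described next. Of 40 splicing regulators 11 (27.5%) were lower and none higher, with a median of -0.14 and 32 below 0; with 1 array left out the count was 4 to 11. After HNRNPA1 and HNRNPC came the splicing coactivator SRRM2, at 9.84 and 9.88 against 9.33 on both Comp.4 arrays (-0.54, SE 0.07, adjusted p = 0.000229 with a trend and 0.0632 without). PNISR had -0.49, SRRM1 -0.40, HNRNPH1 -0.34, HNRNPA2B1 -0.33, LUC7L3 -0.27, HNRNPU -0.25, RBM25 -0.23 and SRSF1 -0.20. Of 26 genes of Mediator and elongation 4 (15.4%) were lower and 1 higher, and without 1 array 1 to 4 and 0 to 1. MED1, the Mediator subunit that contacts nuclear receptors, was at 9.50 and 9.56 against 8.99 and 8.98 (-0.55, SE 0.07, adjusted p = 0.000243 with a trend and 0.0574 without). MED12 had -0.37, MED14 -0.24 and CDK13 -0.21, while the Mediator kinase CDK8 was higher by 0.25. CASC3, of the exon junction complex, had -0.35 as the 1 of 11 decay factors that passed, and FTO, an RNA demethylase, had -0.34.

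Targets of the tumour suppressor p53 lay mostly above vehicle. Of 31 measured, 8 (25.8%) were higher with a trend and none lower, the median was 0.19 and 30 of 31 were above 0. GDF15 was the 1 member that rose. SPATA18, of mitochondrial quality control, was at 5.58 and 5.45 under vehicle and at 6.00 on both Comp.4 arrays (0.48, SE 0.08). TRIAP1 had 0.44, EDA2R 0.37, GADD45A 0.27, TP53I3 0.22 and CCNG1 0.22, beside CDKN1A above. With 1 array left out 1 to 7 passed and the median was 0.15 to 0.22. Of 17 BCL2 family genes 13 lay above 0, with a median of 0.08, and the 1 that passed, the pro-apoptotic BCL2L11, was lower by 0.62, at 5.63 and 5.66 against 5.15 and 4.91. Of 22 caspases, death receptors and their inhibitors CASP2 alone passed, with -0.29.

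Inflammatory genes were higher in part. Of 23 chemokines and cytokines 5 (21.7%) were higher and none lower, with a median of 0.09. CXCL5, a neutrophil chemokine, was at 10.40 and 10.45 under vehicle and 10.93 and 10.95 under Comp.4 (0.51, SE 0.08, adjusted p = 0.000632 with a trend). CXCL8 had 0.60, but at dim levels of 3.90 and 3.63 against 4.21 and 4.52, and CXCL1 had 0.43 and IL18 0.21. Subunits and inhibitors of NF-κB, the transcription factor behind many of these genes, were mixed, with 3 of 19 higher and 3 lower, or 0 to 4 and 0 to 3 without 1 array. NFKB2 (0.47), NFKBIA (0.26) and CHUK (0.23) were higher, and BCL3 (-0.46), RELA (-0.25) and REL (-0.23) lower. Of 14 other NF-κB targets PLAU (0.35) and IER3 (0.26) were higher. Interferon-stimulated genes had 1 of 31 higher, IFI6 (0.32), and 1 lower, EIF2AK2 (-0.23). Of 22 genes of MHC class I and ligands of the receptor NKG2D 2 (9.09%) were higher and none lower, B2M, the light chain of MHC class I (0.37), and the stress ligand gene MICA (0.38). The median of that list was 0.07, its lowest value -0.31, and 0 to 3 of its genes were higher without 1 array. The 5 probe sets of MICA ran from 0.10 to 0.45. Without 1 array, 1 to 4 chemokines and 0 to 4 of the 14 targets passed.

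Lists of metabolism and stress gave calls in different directions. Of 25 integrated stress response genes, which act in amino acid supply under the factor ATF4, 7 (28.0%) were lower and none higher, while the median was -0.06. PSAT1, of serine synthesis, was at 11.44 and 11.28 against 10.83 and 10.90 (-0.49, SE 0.08, adjusted p = 0.00101 with a trend and 0.0868 without). PHGDH, the first enzyme of that pathway, was at 8.72 and 8.65 against 8.30 and 8.21 (-0.43, SE 0.08), and ALDH1L2, of mitochondrial folate metabolism, at 7.02 and 7.03 against 6.33 and 6.59 (-0.57, SE 0.10). These enzymes feed one-carbon metabolism. The cystine transporter SLC7A11 had -0.40, CARS1 -0.32, SLC7A1 -0.30 and SLC7A5 -0.21. Of 18 unfolded protein response genes only SEL1L passed (-0.24), and NRF2 targets had 3 of 24 lower, among them AKR1C2 (-0.38). With 1 array left out 2 to 8 stress response genes and 2 to 3 NRF2 targets were lower.

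Of the 45 lists cholesterol synthesis had the largest share of higher genes, 6 of 19 (31.6%), with a median of 0.17 and 18 of 19 above 0. LSS, lanosterol synthase, was at 6.71 and 6.68 under vehicle and 7.03 and 7.04 under Comp.4 (0.34, SE 0.07). INSIG1, which holds the pathway's regulator in the endoplasmic reticulum, had 0.38, IDI1 0.37, MVD 0.31, MSMO1 0.28 and PMVK 0.26. When 1 array was left out, 0 to 6 passed. Of 33 lysosome and autophagy genes 5 (15.2%) were higher and 1 lower, and without 1 array 2 to 6 and 0 to 1. These were CTSS and CTSL, described above, HEXA (0.33), LAMP2 (0.29) and MCOLN1 (0.28), with the autophagy gene ATG2B lower by 0.32. In the list of glycolysis and hypoxia, PFKFB3 (-0.39) and the glucose transporter SLC2A3 (-0.36) were lower, as 2 of 28 genes (7.14%). That share is near the 6.0% of brighter protein-coding genes. The list median was -0.005, with 13 genes above 0 and 15 below. Of 20 genes of bile acid transport SLC51B was the 1 that rose, and ABCC2 was lower by 0.20.

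Proliferation genes had small differences. Of 46 genes of G1/S and DNA replication 3 (6.52%) were lower, CDK6 (-0.32), MCM4 (-0.24) and MCM3 (-0.21), and the median was -0.06. All 46 were brighter, and this share is near the 6.0% of brighter protein-coding genes that were lower. Of 36 genes of G2/M and mitosis 3 (8.33%) were lower. MKI67, the Ki-67 proliferation marker, was at 11.09 and 11.15 against 10.80 and 10.77 (-0.33, SE 0.07, adjusted p = 0.00114 with a trend and 0.112 without), followed by CENPF (-0.28) and TPX2 (-0.14). Of 26 DNA repair genes PRKDC (-0.36), PMS2 (-0.33) and MSH6 (-0.20) were lower, and 22 lay below 0. PRKDC, the catalytic subunit of DNA-dependent protein kinase, was at 10.16 and 10.17 against 9.83 and 9.79. Of 23 histone genes, which have near-identical copies, H2BC3 (0.50) and H1-5 (0.43) were higher. Without 1 array 0 to 6 genes of G1/S, 1 to 5 of G2/M and 1 to 3 of DNA repair were lower, and 0 to 2 histone genes higher.

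Growth factor pathways and lineage genes gave mixed counts. In the list of MAPK feedback genes and PEA3 factors 6 of 28 (21.4%) were higher, RAP1GAP, FOSL1, DUSP4 (0.33), PHLDA1 (0.32), IER3 and EPHA2 (0.24). In the same list EGFR (-0.30), MYC (-0.30) and NF1 (-0.27) were lower, and without 1 array 1 to 6 were higher and 0 to 3 lower. Of 31 TGF-β pathway genes PMEPA1 (-0.41), SKIL (-0.36) and TGFB2 (-0.20) were lower and none was higher, with a median of -0.12 and 0 to 4 lower without 1 array. Among 28 complement and coagulation genes 4 (14.3%) were lower. C5 was at 8.84 and 8.76 under vehicle and 8.22 and 8.33 under Comp.4 (-0.53, SE 0.08), F5 had -0.56, FGA -0.39 and FGB -0.24, and without 1 array 1 to 4 were lower. Of 25 alveolar and airway lineage genes only FOXA2, a transcription factor of the lung epithelium, passed (-0.35). Ribosomal protein genes had 3 of 47 higher and 1 lower, and heat shock genes 2 of 17 lower. On their brightest probe sets no difference among those that passed was above 0.36 in size. One of the heat shock genes, HSPA9, had -0.17 there and -0.56 on its second, dimmer probe set.

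**Figure D3:**
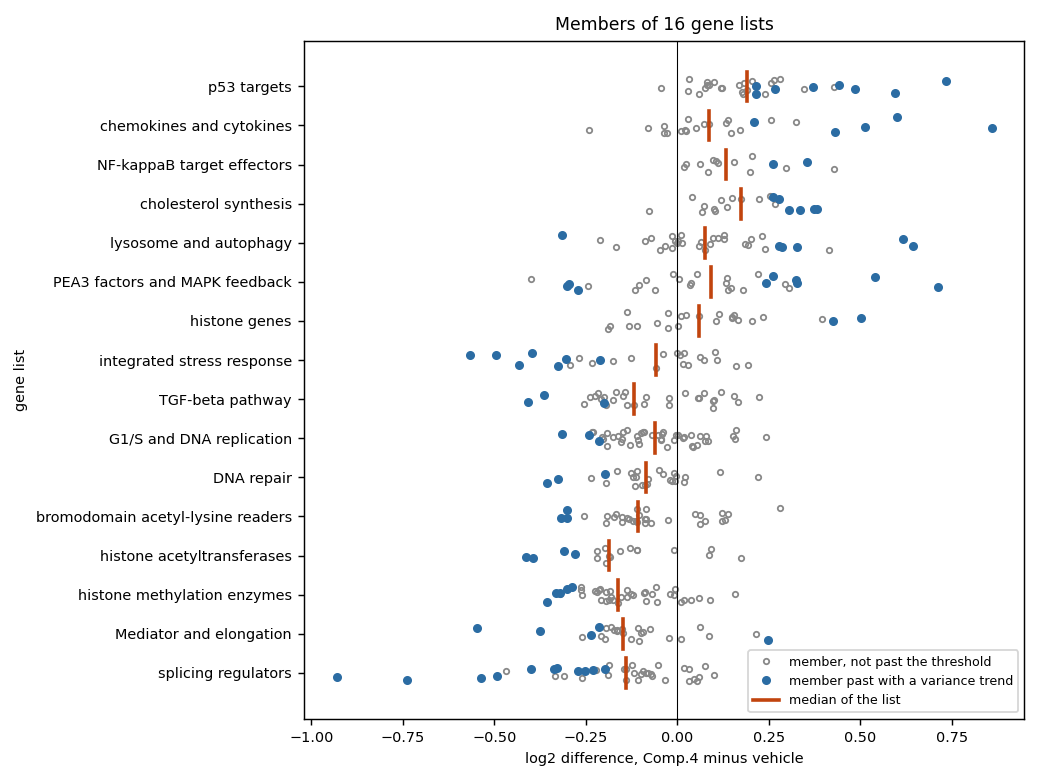
Log2 difference between Comp.4 and vehicle for each measured member of 16 of the 45 gene lists. Filled points passed with a variance trend and vertical bars are list medians. The 16 were picked by hand. Lists such as the unfolded protein response (median 0.02) and cytosolic ribosomal proteins (-0.02) are not shown. Medians of the 16 lie between -0.19 for histone acetyltransferases and 0.19 for p53 targets.

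Among the noncoding genes the 10 that rose included 5 guide RNAs of the nucleolus and Cajal body. SNORA38B was at 10.92 and 11.07 under vehicle and 11.90 and 11.86 under Comp.4, a rise of 0.88 (SE 0.10, adjusted p = 0.0425). SCARNA6 was at 7.18 and 7.16 against 7.99 and 7.85 (0.75, SE 0.08), and SCARNA5 at 7.81 and 7.71 against 8.51 and 8.46 (0.73, SE 0.08). No array overlapped for these genes, but this held for all 28 noncoding genes past the threshold, so it adds nothing to the calls. SNORD71, at 9.23 on both vehicle arrays and 9.90 and 9.92 under Comp.4, rose by 0.68, and SNORA12 by 0.66. SCARNA3 stood alone in falling, from 7.22 and 7.10 to 5.74 and 5.64 (log2 -1.47, SE 0.15, 2.78-fold, adjusted p = 0.0411).

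Over the classes of guide RNA most differences were positive. Of 42 brighter SNORA genes, which guide pseudouridylation, 38 lay above 0, with a median of 0.38. Of 60 brighter SNORD genes, which guide ribose methylation, 48 lay above 0, with a median of 0.19, and of 16 SCARNA genes 13, with a median of 0.33. With a variance trend 22 of 61 SNORA genes (36.1%) were higher and none lower, 19 of 157 SNORD genes (12.1%) were higher and 1 lower, and 8 of 20 SCARNA genes (40.0%) were higher and 2 lower, against 2.18% higher over all genes. SNORA38 (1.22), SNORA50C (0.98) and SNORA5A (0.95) had the largest differences of their class. The 18 protein genes of guide RNA particles and their assembly were mixed. The core proteins NOP10 (0.32) and NHP2 (0.20) and the assembly factors ZNHIT3 (0.28) and PIH1D1 (0.26) were higher, and NAF1 (-0.35) and NOLC1 (-0.25) lower, or 1 to 4 higher and 0 to 3 lower without 1 array. Of 12 host transcripts SNHG1 alone passed, and it was lower by 0.42. Many guide RNAs have close copies, which limits what a single probe set shows.

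The 5S, vault and small nuclear RNAs did not share a direction. The 5S-named RN5S150, RN5S19 and RN5S199 rose by 1.13, 1.01 and 0.96, while 23 of 447 genes of that name (5.15%) were higher and 8 (1.79%) lower with a trend, among them RN5S474 (-1.15) and RN5S395 (-1.04). As near-identical copies of 5S ribosomal RNA they are uncertain as single genes. VTRNA1-3, a vault RNA, was at 7.93 and 7.88 against 8.72 and 8.64, a rise of 0.77 (SE 0.07, adjusted p = 0.0401). Small nuclear RNA copies fell in RNU4-9P (-1.22), RNU6-82P (-0.94) and RNU7-55P (-0.85), all dim, with vehicle levels between 4.01 and 4.99. The 23 brighter RNU genes nevertheless had a median of 0.28. RNA polymerase III makes 5S, vault and U6 RNA. Of 29 genes for its subunits and factors 2 (6.9%) were higher with a trend and none lower. These were SNAPC1 (0.30) and the 5S-specific factor GTF3A (0.29). The list as a whole did not shift, with a median of 0.01, 15 genes above 0 and 14 below.

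Long noncoding RNAs and pseudogenes made up most of the falls. GUSBP3, a pseudogene of the lysosomal enzyme gene GUSB, had the largest, from 7.35 and 7.41 to 5.72 and 5.83 (log2 -1.60, SE 0.08, 3.04-fold, adjusted p = 0.0083). LINC01347 fell from 9.72 and 9.55 to 8.58 and 8.39 (-1.15, SE 0.10), and FTX, a long noncoding RNA of the X-inactivation centre, from 7.18 and 6.98 to 5.88 and 6.14 (-1.07, SE 0.12). The 3 probe sets of LINC01347 ran from -1.15 to -0.45. WHAMMP1 fell by 1.07, LOC100190986 by 0.98, LINC01061 by 0.95, LINC01000 by 0.95, LINC00641 by 0.94, FAM157B by 0.87 and LINC02595 by 0.84. POLR2J4 fell by 0.79, but a second, dimmer probe set of that gene had a difference of 0.20. The second, dimmer probe sets of LINC01000 and LINC00641 had -0.09 and -0.14, so these falls rest on 1 probe set each, while the 3 of LINC01061 ran from -1.13 to -0.95. As a class the 80 brighter LINC genes had a median of -0.10 with 21 above 0, and with a trend 19 of 644 (2.95%) were lower and 1 (0.155%) higher. Pseudogenes had 34 of 884 (3.85%) lower and 12 (1.36%) higher. Both shares of lower genes with a trend are near the 3.3% over all genes. Without the trend 5 of 644 LINC genes and 3 of 884 pseudogenes fell, against 0.0938% of all genes. Of the brighter LINC genes 26.25% lay above 0, against 48.8% of the brighter protein-coding genes.

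The largest of the 12 rises was that of an antisense RNA. IGFL2-AS1 was at 4.87 and 4.39 under vehicle and 6.17 and 6.21 under Comp.4, a rise of 1.56 (SE 0.17, 2.95-fold, adjusted p = 0.0425), although its vehicle arrays lay apart. HNRNPU-AS1 fell from 6.91 and 6.81 to 5.96 and 5.87 (-0.94, SE 0.08, adjusted p = 0.0265), beside HNRNPU, with -0.25 as given above. The 153 brighter antisense RNAs had a median of 0.02. The labels do not say whether probes of these sets could also bind RNA of the opposite strand.

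**Figure D4:**
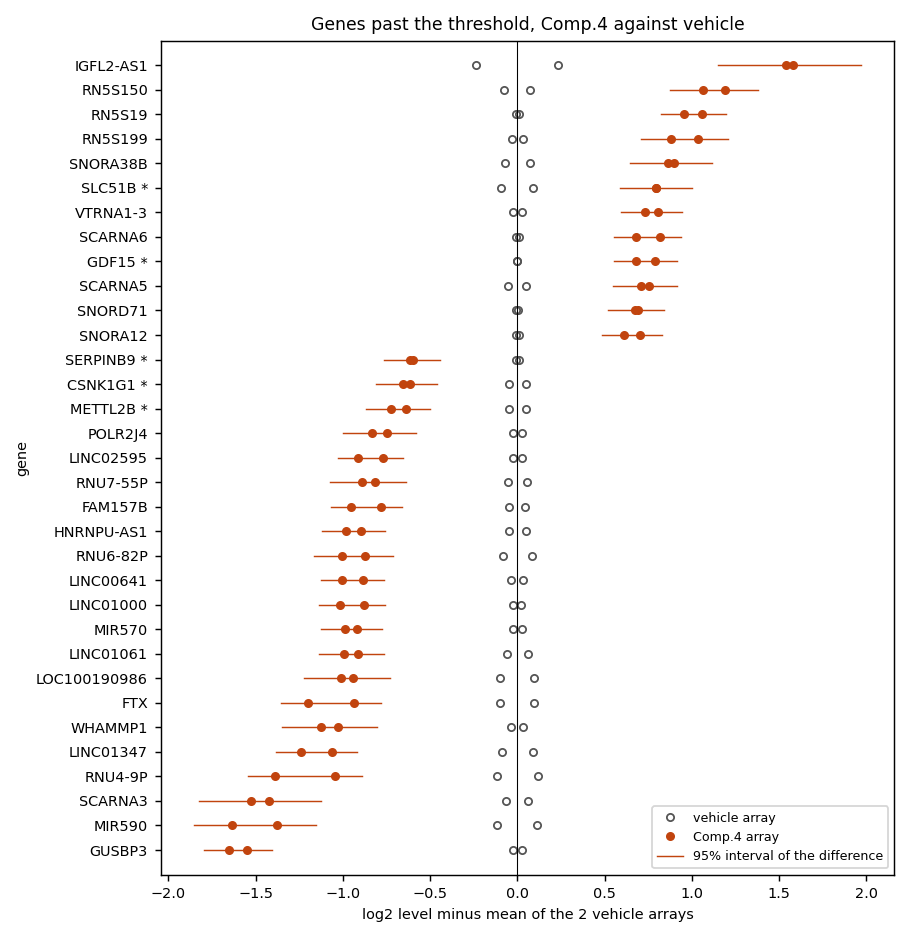
Log2 level on each vehicle and Comp.4 array minus the vehicle mean for the 33 genes past the threshold, with 95% intervals of the difference as lines; asterisks mark the 5 protein-coding genes. The rises run from 0.66 for SNORA12 to 1.56 for IGFL2-AS1 and the falls from -0.61 for SERPINB9 to -1.60 for GUSBP3.

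Of the microRNA genes MIR590 and MIR570 fell, and their mature products are shown because the seed, bases 2 to 8, sets which messages a microRNA pairs with. MIR590 was at 5.33 and 5.10 under vehicle and 3.84 and 3.58 under Comp.4 (log2 -1.50, SE 0.15, 2.84-fold, adjusted p = 0.0411). These levels are dim, below the median gene (5.35), which limits what the fold change shows. MIR570 was at 7.78 and 7.72 against 6.76 and 6.83 (-0.95, SE 0.07, adjusted p = 0.0265). Neither gene's arrays overlapped, which held for all 28 noncoding genes past the threshold. The sequences are RefSeq's for GRCh38.p14, on the plus strand, with the seed in capitals.
hsa-miR-590-5p, chr7:74191213-74191234: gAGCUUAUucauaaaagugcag
hsa-miR-590-3p, chr7:74191253-74191273: uAAUUUUAuguauaagcuagu
hsa-miR-570-5p, chr3:195699425-195699446: aAAGGUAAuugcaguuuuuccc
hsa-miR-570-3p, chr3:195699460-195699481: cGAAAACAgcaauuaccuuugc
No seed was shared between the 4. The probe sets do not separate a mature microRNA from its hairpin or the longer RNA that holds it, so the falls are of RNA from these loci. With a trend 24 of 1046 microRNA genes (2.29%) were lower and 8 (0.765%) higher, below the shares over all genes, among the lower ones MIR568 (-1.23) and MIR548V (-0.99). The RefSeq gene table places several microRNA genes within FTX. Of these MIR421 was lower by 0.85 and MIR545 by 0.84 (adjusted p = 0.00867 and 0.0126 with a trend), and MIR374A, MIR374B and MIR374C had differences of -0.04 to 0.13. All 5 were dim, with MIR421 at 4.76 and 5.09 under vehicle and 4.17 and 3.99 under Comp.4, and MIR545 at 4.83 and 4.35 against 3.68 and 3.81.

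**Figure D5:**
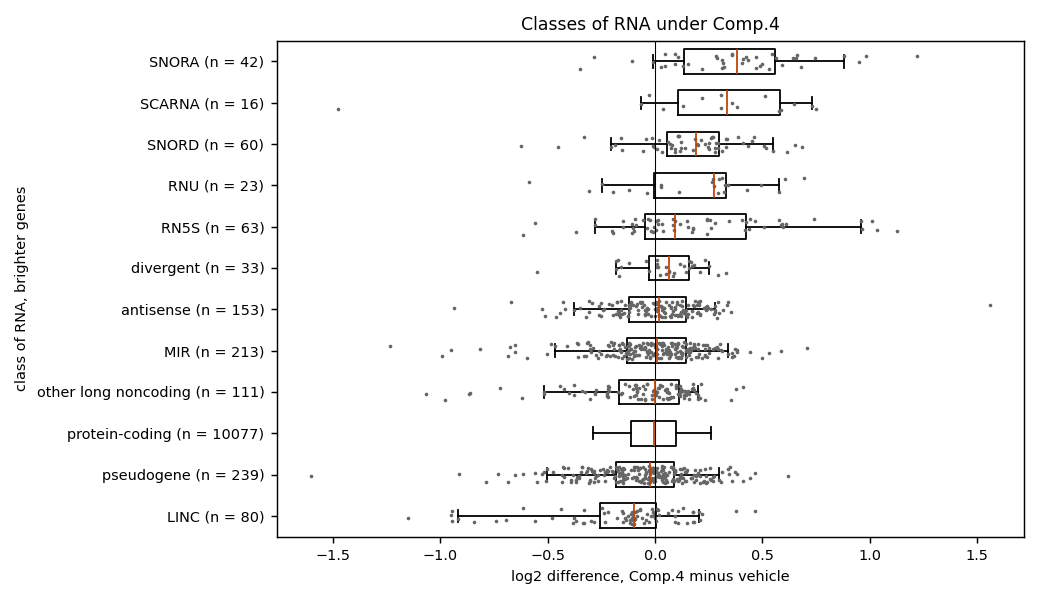
Log2 difference between Comp.4 and vehicle for brighter genes of each RNA class; boxes span the quartiles with the median, whiskers the 5th to 95th percentile, and points are single genes except for the 10077 protein-coding genes. The SNORA, SCARNA and RNU boxes have medians of 0.38, 0.33 and 0.28, the protein-coding box one of -0.01 and the LINC box one of -0.10.

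Genes that overlap these noncoding RNAs in the RefSeq table (GRCh38.p14) mostly stayed near vehicle. For 12 noncoding genes past the threshold an overlapping protein-coding gene was measured, and none of the 12 distinct protein-coding genes that overlap a gene past the threshold passed, with differences of -0.32 to 0.21. SCARNA5 and SCARNA6 both lie in ATG16L1, which was at 7.74 and 7.68 under vehicle and 7.81 and 7.75 under Comp.4 (0.06, 95% interval -0.11 to 0.24). SCARNA3 lies in COP1, which had 0.21 (95% interval 0.02 to 0.39), opposite in sign to the fall of SCARNA3. EIF4H, which holds MIR590, was at 9.95 and 9.89 against 9.81 on both Comp.4 arrays (-0.11, 95% interval -0.27 to 0.05). NOL11 around SNORA38B had 0.07, CWF19L1 around SNORA12 0.05 and IGFL2 beside its antisense RNA 0.04. AP1G1, an adaptor of clathrin vesicles that holds SNORD71, was the 1 called with a trend, at 10.41 and 10.45 against 10.13 and 10.11 (-0.32, adjusted p = 0.0016), while SNORD71 rose. MIR570HG, the host of MIR570, had -0.21 (95% interval -0.50 to 0.08) and JPX, which overlaps FTX, -0.22. The difference between a noncoding RNA and its overlapping gene was not tested.

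Comp.2 was given at the same dose and for the same time, and since both compounds are set against the same vehicle arrays, their values are given side by side. GDF15 was 0.74 above vehicle under Comp.4 and 0.85 under Comp.2, and the compounds differed by -0.12 (95% interval -0.30 to 0.06). SLC51B was 0.80 and 0.49 above vehicle (0.30, 0.10 to 0.51, adjusted p = 0.192 for Comp.4 against Comp.2). CDKN1A had 0.60 under Comp.4 and 1.19 under Comp.2 (-0.60, -0.86 to -0.33, adjusted p = 0.1001). In the test of Comp.4 against Comp.2, which called 83 genes (0.371%), METTL2B was lower under Comp.4 by 0.60 (adjusted p = 0.043), at 5.15 and 5.24 against 5.82 and 5.77. SNORA12 was higher by 0.86 (adjusted p = 0.0187), SCARNA6 by 1.02 (adjusted p = 0.0166) and VTRNA1-3 by 0.82 (adjusted p = 0.0194). LINC01347 was lower by 0.92 (adjusted p = 0.028) and MIR570 by 0.91 (adjusted p = 0.0166), with Comp.2 levels of MIR570 at 7.74 and 7.68. F5, H2BC3 and SPATA18 were among the genes that differed. F5 was -0.56 from vehicle under Comp.4 and 0.66 under Comp.2 (-1.22, adjusted p = 0.0194), and H2BC3 was 0.50 and -0.58 (1.08, adjusted p = 0.0166). SPATA18 was above vehicle by 0.48 under Comp.4 and 1.57 under Comp.2 (-1.09, adjusted p = 0.0166). H1-5 was also higher under Comp.4 than under Comp.2, by 1.05 (adjusted p = 0.028), while C5 (-0.65, adjusted p = 0.0385) and SLC2A3 (-0.67, adjusted p = 0.0299) were lower. For HNRNPA1 the compounds differed by -0.81 (-1.17 to -0.46, adjusted p = 0.0965) and for CREBBP by -0.42 (-0.61 to -0.23, adjusted p = 0.102), and neither passed. For CCL2 the difference was 0.16 (-0.24 to 0.57), for FOSL1 -0.04 (-0.29 to 0.21) and for GUSBP3 -0.21 (-0.40 to -0.01), so a difference between the compounds anywhere within these intervals remains possible.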

How the data were processed

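RNA of 6 A549 samples, 2 each of vehicle, Comp.2 and Comp.4, was measured on Affymetrix arrays. The authors deposited log2 values per probe set that came from RMA, per the submitters' processing notes, which also name Transcriptome Analysis Console 2.0 and Affymetrix Expression Console 1.3.1. Of 53617 probe sets, 23871 had 1 gene symbol in the platform annotation, 1842 had several and 27904 were unnamed here; the last groups were left out. Entrez numbers of 22569 matched RefSeq (GRCh38.p14), 733 matched by symbol only and 90 symbols were updated. The brightest probe set stood for each of 632 genes with several, giving 22395 genes.

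The test was limma's (version 3.58.1, R 4.3.3), with a mean per group over all 6 arrays, 3 residual and 3.71 prior degrees of freedom (7.17 with a variance trend), two-sided, Benjamini-Hochberg over all genes, and checked on simulated data. The 45 gene lists (997 of 1168 symbols measured) and the genes described were chosen with earlier results of these data known. Named were all protein-coding genes and the 8 largest noncoding rises and falls past the threshold, the 15 largest moderate protein-coding differences each way, up to 4 members per list and 3 per RNA class past with a trend, and EP300 and CREBBP. The other genes past the threshold, further list members and overlapping genes were chosen after their values were seen. Protein length was not analysed here.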

Additional observations from a re-analysis of the deposited data

How the results depend on the processing

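All 33 genes past the threshold kept their sign in every setting tried, which arrays without overlap fix in part, and they all passed with a variance trend. The counts, against 12 genes higher and 21 lower (2 and 3 protein-coding), moved with the setting. With a variance trend there were 488 and 738 (362 and 619 protein-coding), among brighter genes alone 340 and 499 (256 and 423), at an adjusted p of 0.10 124 and 185 (56 and 120), and at an unadjusted p of 0.05 1935 and 1764 (1432 and 1394). Testing all probe sets together gave 4 and 9 (0 and 0; 1116 and 1116 unadjusted). Same-numbered replicates did not deviate together (correlations -0.04 to 0.03), and with a replicate block there were 0 and 4 (0 and 0; 1321 and 1286 unadjusted). Limma called 0 and 0 when protein-coding genes were tested alone (1627 and 1540 unadjusted) and when the vehicle and Comp.4 arrays were used alone (1999 and 1767 unadjusted; 1463 and 1380 protein-coding). Leaving out any 1 of the 6 arrays also gave 0 in all 4 counts, with 1228 to 1999 and 1150 to 1767 unadjusted (854 to 1463 and 830 to 1380 protein-coding). The fits on fewer arrays have fewer residual degrees of freedom; the cause of the other moves was not tested.

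The trend counts of 488 and 738 became 100 to 552 and 143 to 793 without 1 array: 100 and 143 without vehicle replicate 1, 113 and 150 without vehicle replicate 2, 165 and 260 without Comp.4 replicate 1, and 213 and 333 without Comp.4 replicate 2. They were 450 and 692 with the replicate block and 784 and 1073 among brighter genes. With the vehicle and Comp.4 arrays alone they were 551 and 794. Of the 33 genes, 31 to 33 passed in trend fits without 1 array. Of the 945 moderately shifted protein-coding genes, 143 to 913 did, and 92 in every such fit. These trend fits without 1 array were chosen after seeing the data. Of 163 genes named by rule 162 kept their sign in every setting. A robust prior, the mean of probe sets and a second quantile normalization left the counts within 1.5 times.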
